A study of Bos taurus with 30 samples.

Results

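The stromal cells of a bovine endometrium-on-a-chip were compared between 50 mM and 5 mM glucose. Of the 30 samples of the series, 6 belong to this comparison: the 3 stromal libraries at 5 mM glucose and the 3 stromal libraries at 50 mM glucose, chosen by their labels and paired by replicate number. The cells were primary endometrial cells of cows (Bos taurus) that were not pregnant and had entered the luteal phase. Stromal-enriched cells grew on the underside of a porous membrane in the lower chamber, epithelial cells grew on its other side in the upper chamber, and RPMI 1640 medium made without glucose, with 5 mM or 50 mM of glucose added, was pumped through for 72 hours. The 5 mM group stood for a physiological concentration and the 50 mM group for an extreme one, and the comparison asks how stromal transcripts differ between them. The stromal fraction was enriched by differential plating and not sorted, so a stromal library can hold RNA of other cells. The paper describes the 3 replicates as biological, but the labels do not say which animals or cultures gave them. The p-values measure only the spread between these samples. A control with raised osmolarity but without raised glucose was not analysed here, so glucose and osmolarity cannot be told apart.

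The endometrial stroma is the fibroblast-rich layer beneath the uterine epithelium. It makes the collagens and other matrix of the tissue, responds to progesterone and estrogen, and takes part in innate defence. Cells read high glucose through several routes, among them the MondoA transcription factor, which drives TXNIP and ARRDC4, the polyol pathway, which turns glucose into sorbitol through the aldose reductase AKR1B1, and the osmotic stress factor NFAT5. Interferon-stimulated genes such as MX1 and ISG15 encode antiviral proteins and are switched on by type I interferon, which in ruminants also comes from the early conceptus.

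The stromal libraries held 14484828 to 16392267 counted reads. Levels are given in CPM, the counts of a gene scaled to the same library total. Where no read was counted, up to 3 reads remain possible, or 0.183 to 0.207 CPM, for counting error only. The collagen gene COL1A1 (ENSBTAG00000013103), a stromal product, stood at 23136, 22772 and 17538 CPM in replicates 1, 2 and 3 at 5 mM, and at 25347, 20571 and 5708 CPM at 50 mM. The 6 libraries thus carried the defining stromal transcript, with replicate 3 at 50 mM far below the others. The mesenchymal filament gene VIM (ENSBTAG00000018463) had 2869, 2833 and 3535 CPM at 5 mM and 2386, 2766 and 1591 CPM at 50 mM, and was also lowest in that library. Other cell types were thinly represented: the 11 endothelial markers with a row in the table summed to 11.3 to 31.8 CPM, and the 8 immune markers to 5.22 to 20.7 CPM. The 13 smooth muscle and pericyte markers summed to 3922, 10331 and 5065 CPM at 5 mM and to 4518, 10974 and 2102 CPM at 50 mM, so replicate 2 was the highest at both concentrations.

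The stromal libraries differed in how many epithelial transcripts they held. The epithelial share of a stromal library was estimated as the median, over epithelial marker genes at or above 10 CPM in the epithelial library of the same pair, of the stromal CPM divided by the epithelial CPM. It was 6.82%, 0.0186% and 0.0784% in replicates 1, 2 and 3 at 5 mM glucose. At 50 mM it was 16.0%, 6.21% and 60.5%. The share was higher at 50 mM in 3 of 3 pairs, by 25.3 percentage points on average with an SD of 30.5 and by 7.68 points without replicate 3, although replicate 2 at 50 mM lay below replicate 1 at 5 mM. An exact paired permutation test (two-sided) gave p = 0.25, which is the smallest p that 3 pairs can give. In bulk RNA, more epithelial cells and more RNA per epithelial cell cannot be told apart.

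The replicate 3 library at 50 mM held more epithelial than stromal signal by this measure, and list medians without this pair are given below. Single markers of this library ran from 42.1% to 150%. With 62 other markers, chosen in the vehicle libraries of the insulin experiment, its share was 44.2%. With the mean of the epithelial libraries at 50 mM as reference, its share was 66.6%. Which signal was the larger thus depends on the markers. Whether cells or RNA crossed between the chambers of this chip, or libraries were mixed up, was not tested. EPCAM (ENSBTAG00000006474), an adhesion molecule of epithelia, had 31.3, 0 and 0 CPM at 5 mM and 71.4, 23.3 and 307 CPM at 50 mM. The simple-epithelium keratin gene KRT19 had 98.6, 1.01 and 4.70 CPM at 5 mM and 250, 128 and 1076 CPM at 50 mM. The concentrations did not overlap, as for 4.73% of all genes tested in this direction. KRT18 (ENSBTAG00000001517), the keratin used to mark epithelial cells, ordered the libraries differently, with 47.4, 176 and 57.3 CPM at 5 mM and 99.5, 334 and 336 CPM at 50 mM. Replicate 2 at 5 mM thus had the highest KRT18 of its group while its EPCAM count was 0, and its partner keratin KRT8 was likewise at 146 CPM. KRT18 and KRT8 thus ranked the 5 mM libraries differently from EPCAM and KRT19. Single markers also stood far above the median, with highest ratios of 71.4%, 114% and 73.3% in replicates 1, 2 and 3 at 5 mM. The share is a median over many markers.

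**Figure D1:**
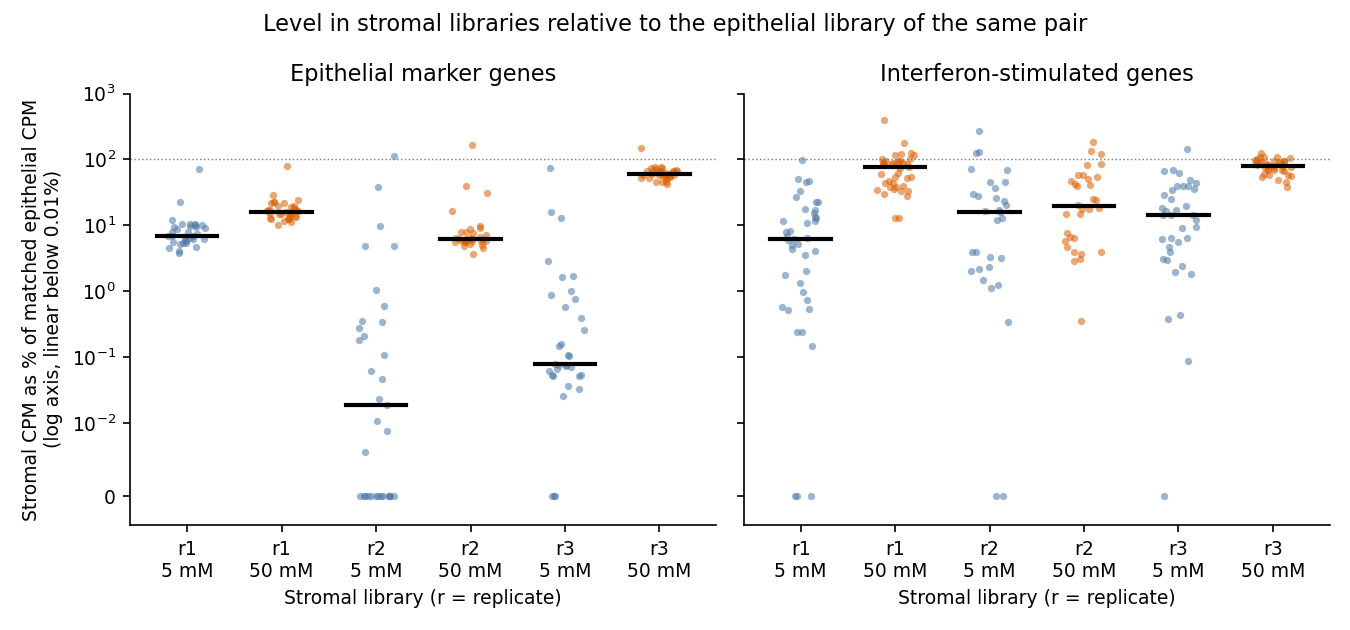
Each point is a gene's CPM in a stromal library as a percent of its CPM in the epithelial library of the same pair (log axis, linear below 0.01%), for epithelial markers and for interferon-stimulated genes, with black bars at the medians and blue and orange for 5 and 50 mM. The epithelial medians are 6.82%, 0.0186% and 0.0784% at 5 mM and 16.0%, 6.21% and 60.5% at 50 mM, and those of the interferon-stimulated genes are 75.9% and 80.2% in replicates 1 and 3 at 50 mM.

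Across genes, 13644 were tested by the quasi-likelihood method of edgeR, with the replicate number as a block and p-values adjusted after Benjamini-Hochberg. A gene was called at an adjusted p under 0.05 and a log2 fold change beyond 0.1, and 0 genes passed. The smallest adjusted p was 0.696. At an unadjusted p under 0.05, 496 genes were higher at 50 mM (3.64% of those tested) and 168 were lower (1.23%). A Wald test with DESeq2 on the same pairs called 178 genes, 175 of them higher, and edgeR without replicate 1 called 50, all higher. Of those, 175 of the 178 and 50 of the 50 were genes that epithelial cells expressed more strongly than stromal cells in other libraries.

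That cell type difference was taken from the 6 vehicle libraries of the insulin experiment, which do not enter the glucose comparison. Of 13395 genes tested there, 2272 were at least 2-fold higher in epithelial cells (17.0%) and 2133 were at least 2-fold higher in stromal cells (15.9%), each at an adjusted p under 0.05 (edgeR quasi-likelihood, Benjamini-Hochberg). The rest formed a class of neither. In the glucose comparison, the 1992 tested genes of the epithelial class had a median log2 fold change of 0.65, with 0.33, 0.26 and 1.43 in pairs 1, 2 and 3. The 2105 genes of the stromal class had a median of -0.35, with 0.00, -0.12 and -0.93. The 8914 genes of neither class had a median of -0.02, beside -0.03 over all genes tested. The epithelial class thus had the highest median in each pair and the stromal class the lowest in pairs 2 and 3. The distance between them was largest in pair 3, where the share differed most.

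Without replicate 3, the medians were 0.29 for the epithelial, -0.05 for the stromal and -0.02 for the neither class. Of the epithelial class, 1211 genes (60.8%) were higher in 3 of 3 pairs, against 17.6% of all genes tested, and 404 of the 496 genes that were higher at an unadjusted p under 0.05 belonged to it. The filter on low counts limits these numbers and the class medians. A gene hardly counted at the lower glucose concentration passed it only through its libraries at the higher concentration, and could hardly come out lower. How much of the numbers this accounts for was not tested. Of the stromal class, 676 genes (32.1%) were lower in 3 of 3 pairs, against 17.8% of all genes. Across 13011 genes, the log2 difference within a pair correlated with the log2 epithelial over stromal level of the vehicle libraries, with Pearson's r of 0.34, 0.57 and 0.82 and Spearman's rho of 0.22, 0.35 and 0.74 in pairs 1, 2 and 3. These correlations are across genes, which are not independent replicates, and each pair enters with its own libraries only.

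A second fit took the share into account gene by gene. The epithelial part of each 5 mM library was first subtracted with its own share. The mixture level of a gene was the stromal level at 5 mM that remained, times the stromal part of the 50 mM library, plus the level in the matched epithelial library, times the epithelial share. It entered the same edgeR test as an offset. Each 5 mM library had a mixture level by its own share. The fold change of this fit compares 50 with 5 mM after each library is set against its mixture level. A value of 0 means the same ratio to the mixture at both concentrations. It called 0 genes, with a smallest adjusted p of 0.952 (edgeR quasi-likelihood, Benjamini-Hochberg), and at an unadjusted p under 0.05 it had 288 genes higher (2.11%) and 215 lower (1.58%). The medians of the epithelial, stromal and neither classes were 0.05, 0.00 and -0.01 in this fit. The epithelial class held 93 of the 288 genes that were higher at an unadjusted p under 0.05, where it had held 404 of 496 without the offset. This class was 14.6% of the genes tested, so it was still over-represented among the 288. The calculation assumes that epithelial RNA in a stromal library has the composition of the matched epithelial library, which was not tested. Against the mixture level of its own pair, the median gene of neither class stood at 0.941, 1.05 and 0.969 times in replicates 1, 2 and 3 at 50 mM (0.5 CPM added to both). A gene slightly above or below its mixture level is thus not read as different.

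**Figure D2:**
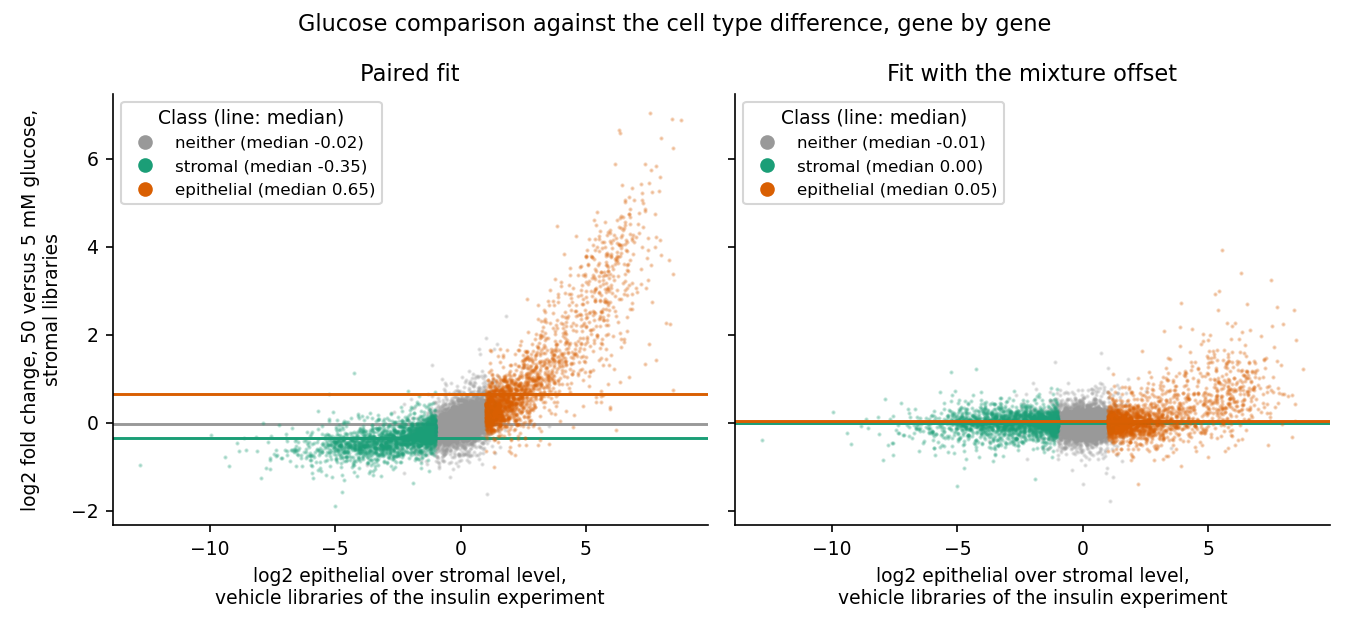
Each point is a gene, with its log2 epithelial over stromal level in the vehicle libraries of the insulin experiment on the x axis and its log2 fold change at 50 versus 5 mM glucose in stromal libraries on the y axis, in the paired fit and in the fit with the mixture offset. Lines give the medians of the epithelial, stromal and neither classes, which are 0.65, -0.35 and -0.02 in the paired fit and 0.05, 0.00 and -0.01 with the offset.

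The genes with the smallest p-values in the paired fit were mostly of the epithelial class. XAF1 (ENSBTAG00000011343), an interferon-induced regulator of apoptosis, had 0.456, 0.126 and 0.671 CPM at 5 mM and 9.64, 0.887 and 15.7 CPM at 50 mM. All its 50 mM libraries lay above all its 5 mM libraries, as for 4.73% of all genes tested. The log2 fold change was 4.15 (SE 0.384), with an unadjusted p of 0.000304 and an adjusted p of 0.696 (edgeR quasi-likelihood, Benjamini-Hochberg). The mixture levels of the 50 mM libraries were 4.30, 1.29 and 17.6 CPM, so only replicate 1 stood above its mixture level. The desmosomal plaque gene PKP1 had 0.456, 0.0629 and 0.732 CPM at 5 mM and 2.38, 0.955 and 17.8 CPM at 50 mM, with mixture levels of 4.06, 2.05 and 27.9 CPM. PKP1 was therefore higher at 50 mM in 3 of 3 pairs and below its mixture level in 3 of 3.

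The other genes that the rule named as higher in the paired fit were DENND2D, ALPL, CAV2, ADGRL3, UPP1 and CHRNB1, all of the epithelial class. CAV2, a component of caveolae, had 31.4, 19.6 and 40.8 CPM at 5 mM, 48.6, 32.3 and 67.8 CPM at 50 mM, and mixture levels of 45.1, 27.4 and 67.0 CPM. Its log2 fold change was 0.63 (SE 0.09995) in the paired fit and 0.05 (SE 0.154) with the offset. The alkaline phosphatase gene ALPL and the uridine phosphorylase gene UPP1 had log2 fold changes of 2.00 and 1.17, and of -0.57 and -0.02 with the offset. CHRNB1, a subunit of the muscle acetylcholine receptor, had 0.76 and -0.24. For ADGRL3, an adhesion receptor, the value was 1.54 without and 0.64 with the offset, and its 50 mM libraries (20.9, 7.71 and 6.08 CPM) each stood above their mixture levels of 19.7, 5.51 and 3.87 CPM.

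The genes named as higher in the fit with the offset were CA2, LGALS9, SPINK1, IHH, NFE2L3 and KIAA1324. CA2 (ENSBTAG00000017733), a cytosolic carbonic anhydrase, was the only one of these 6 outside the epithelial class. It had 87.7, 43.7 and 55.6 CPM at 5 mM and 126, 67.5 and 73.6 CPM at 50 mM, beside mixture levels of 83.7, 43.4 and 48.6 CPM. Each 50 mM library stood above its own 5 mM partner and above its mixture level, while the groups overlapped because replicate 1 was high at both concentrations. The log2 fold change of CA2 was 0.45 (SE 0.112) in the paired fit and 0.65 (SE 0.0805) with the offset, with an adjusted p of 0.696 and 0.952 (edgeR quasi-likelihood, Benjamini-Hochberg). Without 1 replicate at a time, its value in the paired fit was 0.40 to 0.55.

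The other 5 were close to 0 in the 5 mM libraries of replicates 2 and 3, where the mixture fit depends on a floor of 0.5 CPM added to every mixture level. IHH, a hedgehog ligand of the uterine epithelium, had 2.09, 0.126 and 0.244 CPM at 5 mM and 9.33, 2.32 and 18.0 CPM at 50 mM. Its mixture levels at 50 mM were 5.73, 1.92 and 12.1 CPM, which all 3 libraries exceeded. LGALS9, a galectin, had 13.0, 1.09 and 28.4 CPM at 50 mM against mixture levels of 15.6, 2.41 and 47.1 CPM, and so lay below the level of its own pair in each library although its log2 fold change with the offset was 1.66. The 34 epithelial markers tested, which set the share, kept a median of 0.74 in the fit with a 0.5 CPM floor and 0.48 with a floor of 0.1 CPM. A value of this size is thus not read as a difference for genes near 0. Of these 34 markers, 33 were of the epithelial class and 1 of the stromal class.

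Of the genes named as lower, MT-ND3 and DTX4 were named by both fits. MT-ND3 (ENSBTAG00000043568), a mitochondrially encoded subunit of respiratory complex I, had 71.5, 172 and 81.7 CPM at 5 mM and 50.9, 136 and 57.5 CPM at 50 mM. It was lower in 3 of 3 pairs, with overlap between the groups because replicate 2 was high at both concentrations. Its log2 fold change was -0.51 (SE 0.105, adjusted p = 0.696) in the paired fit and -0.41 (SE 0.0744, adjusted p = 0.952) with the offset (edgeR quasi-likelihood, Benjamini-Hochberg). DTX4, an E3 ubiquitin ligase of the Deltex family, had 61.3, 33.4 and 54.9 CPM at 5 mM and 43.1, 28.4 and 36.5 CPM at 50 mM, with -0.51 (SE 0.125) and -0.56 (SE 0.110) in these fits. Its mixture levels were 61.7, 36.1 and 62.4 CPM, all above the measured values.

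SMARCD1, a subunit of a chromatin remodelling complex, varied little within each group. It had 17.7, 19.2 and 17.7 CPM at 5 mM and 11.9, 14.6 and 14.2 CPM at 50 mM, with no overlap (as for 1.43% of all genes in this direction), and log2 fold changes of -0.50 (SE 0.112) and -0.37 (SE 0.111) without and with the offset. OLR1, the receptor for oxidized low-density lipoprotein, had 306, 265 and 8.60 CPM at 5 mM and 104, 184 and 2.62 CPM at 50 mM, below the mixture levels of 276, 250 and 3.65 CPM in each pair. Its log2 fold change was -1.29 (SE 0.275) in the paired fit and -0.81 (SE 0.201) with the offset. The transcriptional repressor gene PRDM1 had -0.82 and -0.32, and SFMBT2, a Polycomb group gene, had -0.87 and -0.47. The secreted protein gene FIBIN and PAPPA, a protease of insulin-like growth factor binding proteins, had -0.61 and -0.56 in the paired fit and -0.21 and -0.11 with the offset. STAC, GPC3, FNDC1 and WDR35, named by the fit with the offset, had -0.42, -1.33, -0.92 and -0.36 there, and GPC3, a glypican, was at 0.977 to 4.72 CPM at 5 mM and 0.138 to 2.18 CPM at 50 mM.

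Of the 13644 genes tested, 14.6% were of the epithelial class, 15.4% of the stromal class and 65.3% of neither. Both fits together had 102 of these genes higher and 75 lower at an unadjusted p under 0.05. Of the 102, 69 were of the epithelial class, 27 of neither and 1 of the stromal class. Of the 75, 0 were epithelial, 27 stromal and 40 of neither. The remaining genes were not tested in the vehicle libraries.

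Interferon-stimulated genes had the largest difference of any list that does not mark a cell type. Of 42 list members with a row in the table, 35 passed the filter on low counts, and the 7 that did not (MX2, RSAD2, IFI44, IFI44L, OAS2, OAS1Z and IFIT2) were at or near 0 at 5 mM. The 35 genes had a median log2 fold change of 1.66, with 2.39, 0.25 and 1.72 in pairs 1, 2 and 3, beside -0.03 over all genes tested. At an unadjusted p under 0.05, 20 of the 35 were higher and 0 lower, beside 3.64% and 1.23% of all genes tested. In 3 of 3 pairs 28 were higher, where 17.6% of all genes tested were. A member near 0 in all 5 mM libraries could pass the filter only through its libraries at the higher concentration. Such a member could hardly come out lower. The median and these counts thus rest on a set chosen partly by the concentration at which its members were high. 0 of the 35 were called. Without replicate 1, 2 or 3 the median was 1.03, 2.06 or 1.35.

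MX1 (ENSBTAG00000030913), an antiviral GTPase, had 11.9, 1.32 and 8.66 CPM at 5 mM and 419, 5.66 and 118 CPM at 50 mM. Replicates 1 and 3 at 50 mM were far above every 5 mM library, and replicate 2 lay within the 5 mM range. The log2 fold change of MX1 was 3.79 (SE 0.692, adjusted p = 0.696 by edgeR quasi-likelihood, Benjamini-Hochberg). ISG15 (ENSBTAG00000014707), a ubiquitin-like modifier, showed the same order with 1.63, 0.692 and 2.07 CPM at 5 mM and 91.8, 1.23 and 36.3 CPM at 50 mM, and a log2 fold change of 4.03 (SE 1.055). ZNFX1, an RNA helicase among the members with the highest mean CPM, had 126, 102 and 147 CPM at 5 mM and 246, 110 and 311 CPM at 50 mM. Its log2 fold change was 0.65 (SE 0.246), and its replicates 1 and 3 at 50 mM also stood above all 5 mM libraries.

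These genes were also abundant in the epithelial libraries. Of the 35 tested, 24 belonged to the epithelial class and 0 to the stromal class. MX1 had 904, 89.5 and 184 CPM in epithelial cells at 5 mM and 500, 146 and 124 CPM at 50 mM. Over the list, the epithelial median log2 fold change was -0.37, with -0.77, 0.35 and -0.39 in pairs 1, 2 and 3, opposite in sign to the stromal medians in pairs 1 and 3. The difference between the stromal and the epithelial glucose effect was itself tested over 14640 genes (edgeR interaction term). At an unadjusted p under 0.05, 7.53% of them differed, with the stromal effect above in 5.74% and below in 1.78%, and 0 genes were called. Of the 42 members, 30 had the stromal effect above at that p and 0 below. Of 35 epithelial markers, 29 had it above and 0 below, with a median difference of 4.43 against 2.15 for the interferon-stimulated genes. The interaction test did not take the epithelial share into account. Without replicate 1, that test called 307 genes over all genes.

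The share of epithelial transcripts had different reach in each pair. In replicate 1, the stromal library at 50 mM carried interferon-stimulated genes at 75.9% of the level of its epithelial partner (median over the members at or above 10 CPM there), while its epithelial share was 16.0%. In replicate 3 the values were 80.2% and 60.5%, and in replicate 2 they were 19.3% and 6.21%. At 5 mM the ratio of the interferon-stimulated genes was 6.19%, 15.8% and 14.4%, and in the vehicle pairs of the insulin experiment it was 11.2%, 10.9% and 7.77%. The ratio in replicates 1 and 3 at 50 mM was therefore above that of the other 7 stromal libraries.

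Against the mixture level of its own pair, the replicate 1 library at 50 mM was above it for 40 of the 42 members, with a median ratio of 2.59 (0.5 CPM added to both). It exceeded 2 times the mixture level for 28 of the 42, and for 24 of the 35 tested, where 79 of all 13644 genes tested did (0.579%). The largest excess was that of IFI27, chosen here after its value was seen, at 21.3 times the mixture level, with 0.847 CPM at 5 mM and 68.9 CPM at 50 mM in this pair. MX1 stood at 419 CPM against a mixture level of 79.8 CPM and ISG15 at 91.8 CPM against 16.6 CPM. In replicate 3, by contrast, MX1 stood at 118 CPM against 78.4 CPM, and 29 of 42 members were above the mixture level with a median ratio of 1.10 and 0 above 2 times (0.176% of all genes). In replicate 2, 19 of 42 were above, with a median ratio of 0.990 and 0 above 2 times (0.205% of all genes), and MX1 stood at 5.66 CPM against 10.3 CPM.

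With the shares used, members above 2 times the mixture level were thus found in 1 library of the 3. The mixture levels of replicate 3 rest on its share of 60.5%, which was 44.2% with the 62 other markers. A lower share gives lower mixture levels for genes that are higher in epithelial cells. The ratios at that lower share are not given here. In the fit with the offset, the list median was 0.63. There, 4 of 35 genes were higher at an unadjusted p under 0.05, beside 2.11% of all genes tested. The list median with the offset was 0.10 without replicate 1, 0.93 without replicate 2 and 1.05 without replicate 3. OAS1X, OAS1Y and OAS1Z are near-identical copies, and since only uniquely mapped reads were counted, the split of reads among them is uncertain.

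**Figure D3:**
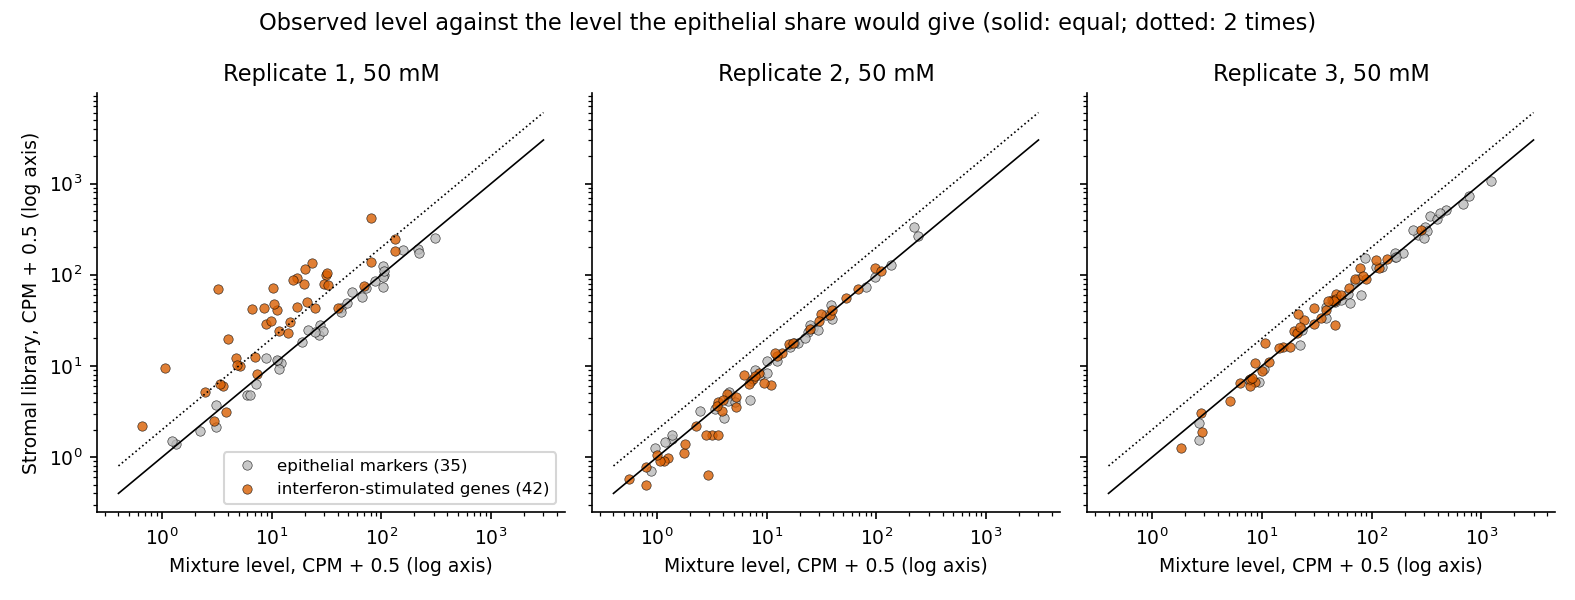
Each point is a gene of the list, with the mixture level of the 50 mM stromal library on the x axis and its measured level on the y axis (CPM + 0.5, both log axes), one panel per replicate, with orange for the 42 interferon-stimulated genes and grey for the 35 epithelial markers. The solid line marks equal values and the dotted line 2 times the mixture level, which 28 interferon-stimulated genes exceed in replicate 1 and 0 in replicates 2 and 3.

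Genes of class I antigen presentation, many of which interferon also induces, had a median close to the mixture level. The 15 members had a median log2 fold change of 0.70 in the paired fit, with 0.36, 0.04 and 1.33 in the pairs, and 0.16 without replicate 3. Of these, 4 were higher at an unadjusted p under 0.05, beside 3.64% of all genes tested, and 7 were higher in 3 of 3 pairs, beside 17.6%. With the offset the median was 0.01, with 0 higher and 1 lower at an unadjusted p under 0.05, beside 2.11% and 1.58% of all genes tested. The chaperone gene CALR had 556, 726 and 612 CPM at 5 mM and 585, 812 and 695 CPM at 50 mM, a log2 fold change of 0.07 (SE 0.119), and its partner PDIA3 had 693, 706 and 748 CPM and 713, 689 and 784 CPM, a value of -0.04 (SE 0.127). Both overlapped between the concentrations. The members that encode class I heavy chains share sequence with one another, and their split is uncertain for the same reason as for the OAS1 copies.

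Collagens had a median below 0 in the paired fit, which was closer to 0 with the offset. The 21 genes had a median log2 fold change of -0.61, with 0.07, -0.26 and -1.66 in pairs 1, 2 and 3, and -0.13 without replicate 3. At an unadjusted p under 0.05, 0 of the 21 were lower, while 7 were lower in 3 of 3 pairs, where 17.8% of all genes tested were. With the offset their median was -0.12, with 1 of 21 lower at an unadjusted p under 0.05, beside 1.58% of all genes tested. That gene was COL12A1, a fibril-associated collagen with 10893, 11583 and 14079 CPM at 5 mM and 8814, 8889 and 3987 CPM at 50 mM. Its groups did not overlap, as for 1.43% of all genes tested in this direction. The mixture levels of 9889, 10899 and 5698 CPM were above the measured values in each pair. The log2 fold change of COL12A1 was -0.89 (SE 0.428) in the paired fit and -0.31 (SE 0.109) with the offset. COL3A1, a fibrillar collagen, had 10027, 7681 and 11194 CPM at 5 mM and 10649, 6187 and 3126 CPM at 50 mM, lower in 2 of 3 pairs.

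From the shares alone, a stroma-only transcript would have a log2 difference in plain CPM of -0.15, -0.09 and -1.34 in pairs 1, 2 and 3. The stromal part of the library was 93.2%, 99.98% and 99.92% at 5 mM and 84.0%, 93.8% and 39.5% at 50 mM. The 31 stromal markers had 0.04, -0.17 and -1.51 on the TMM-scaled level, for which the values from the shares were not computed. Small distances between the 2 sets are thus not read. The median of these markers was -0.51 in the paired fit, -0.08 without replicate 3 and 0.00 with the offset. Tenascin C (TNC), a matrix glycoprotein, had 14109, 8447 and 11696 CPM at 5 mM and 12963, 8501 and 5052 CPM at 50 mM, against mixture levels of 12896, 7997 and 5146 CPM. The 35 matrix glycoprotein, proteoglycan and collagen-processing genes had a median of -0.50 without and 0.00 with the offset, and the 13 matrix metalloproteinases and inhibitors had -0.39 and 0.10. Without replicate 3, the medians of these 2 lists in the paired fit were -0.0191 and -0.0216.

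**Figure D4:**
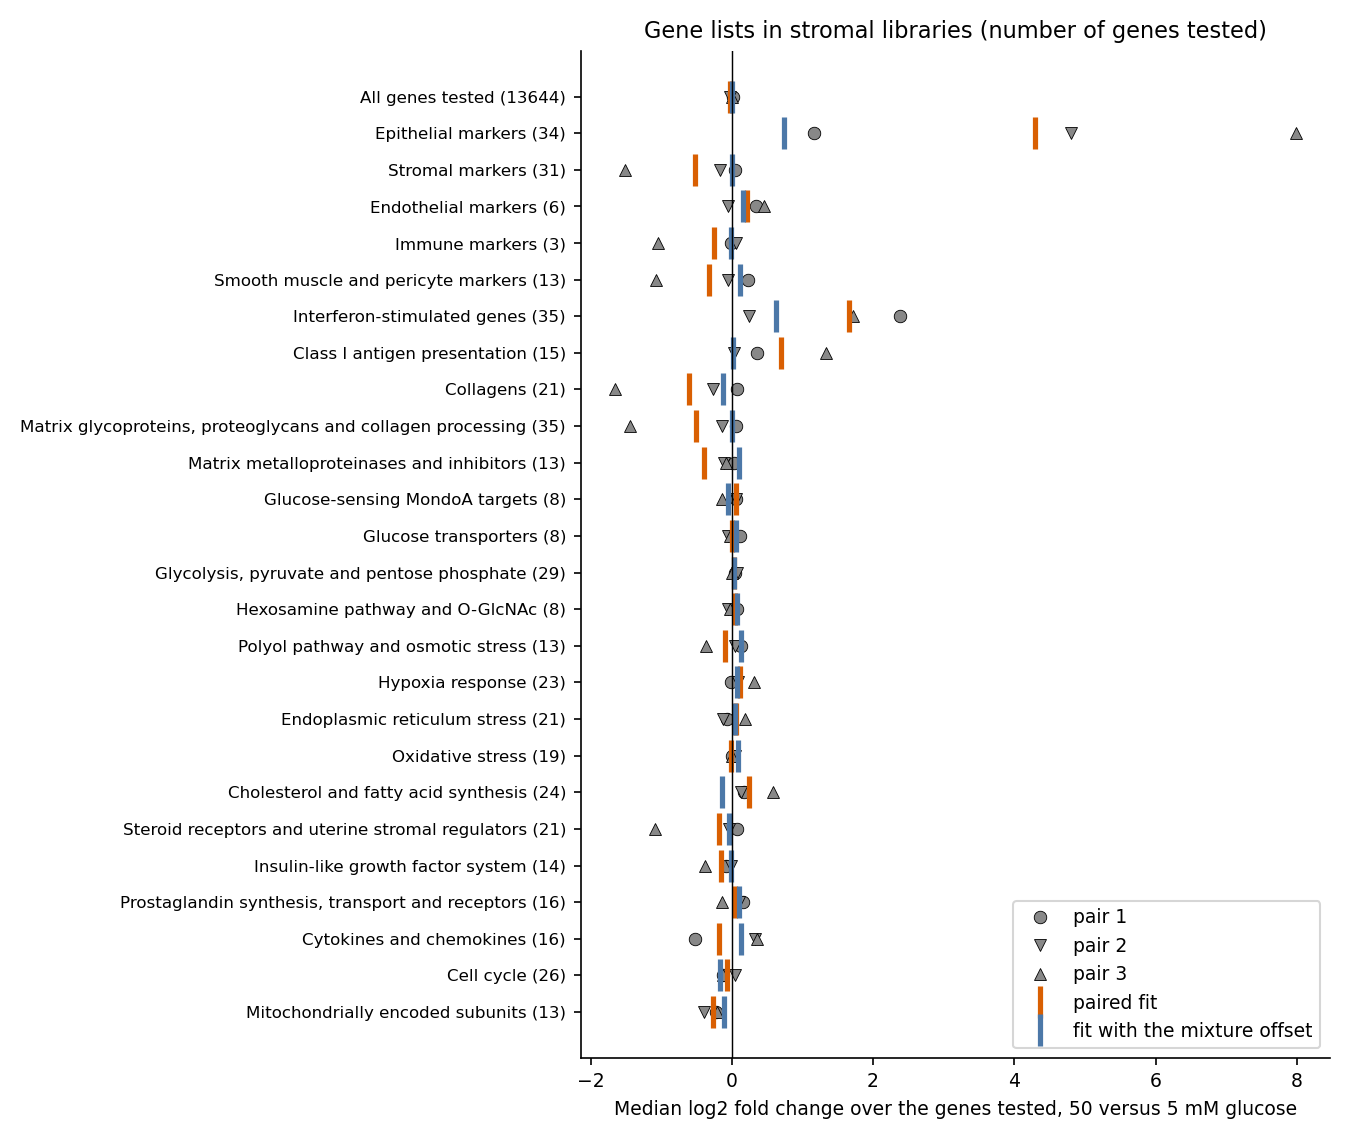
Each row is a gene list with its number of genes tested in parentheses. Grey symbols give the median log2 fold change at 50 versus 5 mM glucose in each pair, the orange bar the median of the paired fit and the blue bar that of the fit with the mixture offset. Interferon-stimulated genes have 1.66 and 0.63, collagens -0.61 and -0.12, and all genes tested lie near 0 in both.

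Gene lists of the response to glucose itself had medians close to that of all genes. The 8 MondoA pathway genes had a median log2 fold change of 0.06, and of -0.05 with the offset, beside -0.03 and 0.00 over all genes. With the offset, 2.11% of all genes tested were higher and 1.58% lower at an unadjusted p under 0.05. Of the 8, 1 was higher at that p, KLF10 with 0.28 (SE 0.0825), and 1 was lower. That gene was MLXIPL, a glucose-responsive transcription factor named here after its value was seen, with 1.11, 0.880 and 1.10 CPM at 5 mM and 0.438, 0.136 and 0.759 CPM at 50 mM. The groups did not overlap at this low level, as for 1.43% of all genes tested in this direction. The log2 fold change was -1.37 (SE 0.501, unadjusted p = 0.0488 by edgeR quasi-likelihood) in the paired fit and -1.27 (SE 0.465) with the offset. TXNIP (ENSBTAG00000020060), the thioredoxin-interacting protein that restrains glucose uptake, had 51.0, 108 and 227 CPM at 5 mM and 74.5, 112 and 398 CPM at 50 mM, with a log2 fold change of 0.40 (SE 0.185, unadjusted p = 0.0908). The mixture levels at 50 mM were 57.8, 113 and 354 CPM, and the log2 fold change with the offset was 0.03 (SE 0.189). ARRDC4, its arrestin-domain relative, had 136, 59.0 and 261 CPM at 5 mM and 111, 69.8 and 218 CPM at 50 mM, higher in 1 of 3 pairs, with -0.17 (SE 0.148). The groups overlapped for both genes, and the replicates differed by more than the concentrations did, as in TXNIP with 51.0 and 227 CPM within the 5 mM group.

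Of the glucose transporters, 8 genes were tested, with a median of 0.00 and of 0.06 with the offset. SLC2A1 (GLUT1), the basal transporter, had 267, 78.7 and 140 CPM at 5 mM and 287, 149 and 526 CPM at 50 mM, higher in 3 of 3 pairs, with a log2 fold change of 0.91 (SE 0.350, unadjusted p = 0.0564) and 0.48 without replicate 3. It is of the epithelial class, its mixture levels were 304, 123.5 and 419 CPM, and its value with the offset was 0.29 (SE 0.150). The fructose transporter gene SLC2A5, named after its value was seen, had 2.48, 0 and 0.183 CPM at 5 mM and 5.76, 2.12 and 29.1 CPM at 50 mM, below mixture levels of 6.22, 3.95 and 40.6 CPM in 3 of 3 pairs. It is of the epithelial class, with a log2 fold change of 3.93 (SE 1.418, unadjusted p = 0.0471) in the paired fit and 0.63 (SE 0.408) with the offset. The groups overlapped, and another row with this symbol did not pass the filter on low counts. DESeq2 and edgeR without replicate 1 called SLC2A5, and without replicate 3 the value was 1.97. SLC2A3 (GLUT3), a high-affinity transporter, had 2154, 677 and 3068 CPM at 5 mM and 1734, 654 and 1771 CPM at 50 mM, lower in 3 of 3 pairs, with -0.45 (SE 0.217) in the paired fit and -0.06 (SE 0.0866) with the offset. The 29 genes of glycolysis, pyruvate and pentose phosphate metabolism had medians of 0.03 in both fits, with 0 genes at an unadjusted p under 0.05 in either. GAPDH had 1619, 1249 and 3013 CPM at 5 mM and 1690, 1467 and 3643 CPM at 50 mM (log2 fold change 0.12, SE 0.143), and PKM, a pyruvate kinase, had -0.02 (SE 0.175).

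Polyol and osmotic stress genes differed little in the paired fit and lay slightly above the mixture. The 13 tested had a median of -0.10 in the paired fit and 0.13 with the offset. With the offset, 2 of the 13 were higher at an unadjusted p under 0.05, beside 2.11% of all genes tested. AKR1B1 (ENSBTAG00000009902), aldose reductase, had 58.1, 40.0 and 47.3 CPM at 5 mM and 63.9, 58.4 and 43.5 CPM at 50 mM, with mixture levels of 58.1, 40.8 and 34.5 CPM. It was above its mixture level in 3 of 3 pairs and above its 5 mM partner in 2 of 3. Its log2 fold change was 0.12 (SE 0.171) in the paired fit, from -0.01 to 0.31 without 1 replicate at a time, and 0.34 (SE 0.0924, unadjusted p = 0.00952) with the offset, where the adjusted p was 0.952 (edgeR quasi-likelihood, Benjamini-Hochberg). NFAT5 (ENSBTAG00000013412) had 111, 73.0 and 94.98 CPM at 5 mM and 117, 81.7 and 131 CPM at 50 mM. It was higher in 3 of 3 pairs, and above the mixture levels of 110, 73.8 and 94.5 CPM. Its ratios to these levels were 1.07, 1.11 and 1.38, where the median gene of neither class stood at 0.941, 1.05 and 0.969. The log2 fold changes of NFAT5 were 0.17 (SE 0.108) without and 0.24 (SE 0.108) with the offset, and its groups overlapped.

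**Figure D5:**
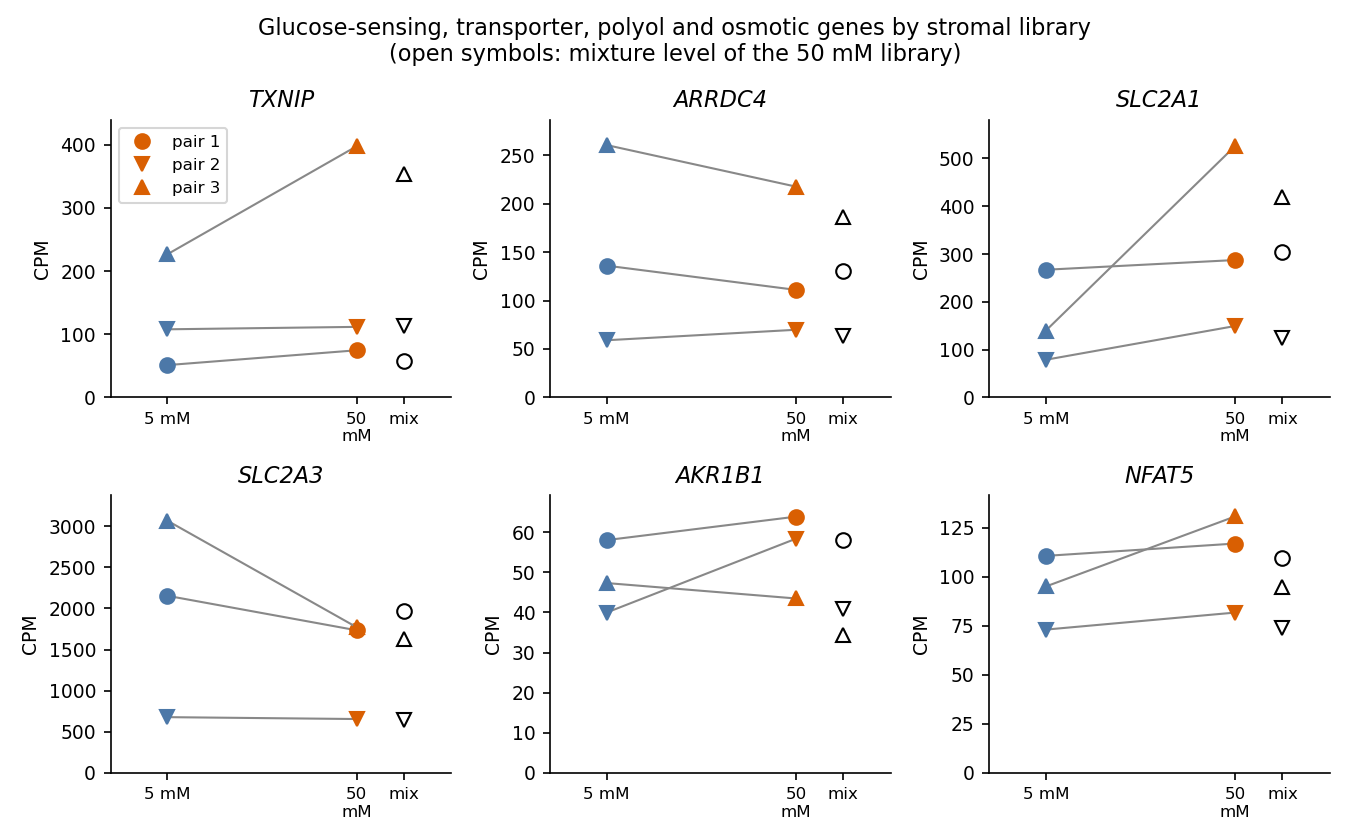
CPM of TXNIP, ARRDC4, SLC2A1, SLC2A3, AKR1B1 and NFAT5 in each stromal library on linear axes from 0, with lines joining the pairs, blue for 5 mM, orange for 50 mM and open symbols for the mixture level of the 50 mM library. AKR1B1 and NFAT5 lie above their open symbols in 3 of 3 pairs, and TXNIP at 50 mM is 74.5, 112 and 398 CPM beside mixture levels of 57.8, 113 and 354 CPM.

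The 13 mitochondrially encoded subunits, to which MT-ND3 belongs, had a median log2 fold change of -0.27, with -0.23, -0.40 and -0.22 in pairs 1, 2 and 3, and -0.28 without replicate 3. Of these, 8 were lower in 3 of 3 pairs and 3 were lower at an unadjusted p under 0.05, beside 1.23% of all genes. The list median was thus of similar size in each pair, unlike that of the collagens. With the offset it was -0.11, and 1 gene, MT-ND3, was lower at an unadjusted p under 0.05, beside 1.58% of all genes tested. The cytochrome oxidase genes COX1 and COX3 had 9809, 11584 and 9400 CPM and 1522, 2436 and 1636 CPM at 5 mM, and 8487, 9837 and 9839 CPM and 1193, 2159 and 1315 CPM at 50 mM. The groups overlapped for both, and COX1 was higher at 50 mM than at 5 mM in CPM in replicate 3.

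Genes of cholesterol and fatty acid synthesis had a median of 0.24 over 24 genes, and of 0.13 without replicate 3 and -0.14 with the offset. In the paired fit 15 were higher in 3 of 3 pairs, beside 17.6% of all genes tested, and 3 were higher at an unadjusted p under 0.05, beside 3.64%. SCD, a fatty acid desaturase of the epithelial class, had 334, 262 and 395 CPM at 5 mM and 474, 397 and 1414 CPM at 50 mM. Its groups did not overlap, as for 4.73% of all genes tested in this direction, and its mixture levels were 488, 379 and 1427 CPM. The hypoxia, endoplasmic reticulum stress, oxidative stress, hexosamine and cell cycle lists had medians between -0.06 and 0.12 in the paired fit, and between -0.09 and 0.04 without replicate 3. The 21 steroid receptor and stromal regulator genes had -0.18, and 0.02 without replicate 3, while the 14 genes of the insulin-like growth factor system had -0.15 and the 16 prostaglandin genes 0.05.

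The progesterone receptor gene PGR (ENSBTAG00000024648) had 12.8, 13.0 and 40.9 CPM at 5 mM and 17.2, 15.9 and 19.6 CPM at 50 mM. It was higher in pairs 1 and 2 and lower in pair 3, where the mixture level was 27.8 CPM. The estrogen receptor gene ESR1 (ENSBTAG00000007159) had 19.2, 28.7 and 43.1 CPM and 26.1, 32.7 and 34.9 CPM, with the same split between pairs. For both receptors the groups overlapped.

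Cytokine and chemokine genes went in opposite directions between pairs. The 16 tested had a median of -0.18, with -0.52, 0.33 and 0.35 in pairs 1, 2 and 3, and 0.37 without replicate 1. CXCL5, a neutrophil chemokine, had 1740, 141 and 181 CPM at 5 mM and 215, 226 and 157 CPM at 50 mM, and its mixture levels were 1557, 134 and 84.0 CPM. Replicate 1 at 5 mM was far above the other 5 libraries, and the log2 fold change of -0.84 (SE 0.808) became 0.12 without that replicate. CSF1, a macrophage growth factor, had 86.1, 175 and 89.9 CPM at 5 mM and 121, 183 and 54.7 CPM at 50 mM, with -0.12 (SE 0.295). The summed CPM of the 22 members was 2786 in replicate 1 at 5 mM and 356 to 707 in the other 5 libraries.

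The replicate 1 pair held further inflammatory genes below the mixture level, chosen here after their values were seen. IL6, an acute-phase cytokine, had 117 CPM at 5 mM and 15.1 CPM at 50 mM, which was 0.149 times its mixture level, and the neutrophil chemokine CXCL8 had 385 and 69.9 CPM, or 0.206 times. Below 0.5 times the mixture level were 77 of the 13644 genes in replicate 1 (0.564%), 22 in replicate 2 (0.161%) and 84 in replicate 3 (0.616%). In replicate 3, CXCL8 lay on the other side, with 17.0 CPM at 5 mM and 33.5 CPM at 50 mM, which was 3.25 times its mixture level.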

How the data were processed

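The authors trimmed the reads of stranded single-end libraries with Cutadapt, filtered them with the FASTX-Toolkit, mapped them to the Ensembl cow genome with Rsubread, recorded unique alignments and summarized these per gene with featureCounts; the deposited counts were not normalized. All sample columns used here matched a label by name. Libraries were grouped by their titles. The main test was edgeR 4.0.16 (R 4.3.3, limma 3.58.1): filterByExpr by group, TMM factors, a quasi-likelihood test of glucose with the replicate number as a block, and Benjamini-Hochberg adjustment over all genes tested. CPM values are counts scaled to the library total over 27607 genes. The block follows the paired design in the study's methods, and the deviations of same-numbered libraries from their group means correlated at 0.34, 0.77 and 0.19 over 13644 genes. Of the pairs with unlike numbers, 5 mM replicate 1 and 50 mM replicate 3 correlated at 0.30, above the 0.19 of replicate 3 itself, and the others at -0.57 to -0.04. Differences within a pair are of TMM-scaled log2 CPM with a prior count of 2. Mixture levels in the text use the 5 mM library of the same pair, and those of the offset use the mean over the 5 mM libraries, each with 0.5 CPM added. Tests were tried on simulated data with known changes. Alternatives were DESeq2 1.42.0, RLE size factors, another filter, fits without the block, with the share as a covariate or with all 12 glucose libraries, other markers, reference or floor for the share, and leaving out each replicate. The authors' comparison tables hold fold changes and p-values and were used only for gene names and types. The symbol SLC5A3 matched no row and is not analysed here.

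Named genes were, among protein-coding genes with a symbol that went the same way in 3 of 3 pairs, the 8 higher and 8 lower with the smallest p in the paired fit and the 6 and 6 of the fit with the offset, a set of direct readouts, and the 2 members of each list described with the highest mean CPM, of which a few are not reported here. The direct readouts were KRT18, EPCAM, VIM, COL1A1, TXNIP, ARRDC4, SLC2A1, SLC2A3, AKR1B1, SLC5A3, NFAT5, ISG15, MX1, PGR and ESR1. The members and lists were chosen with earlier results of these data known.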

Additional observations from a re-analysis of the deposited data

Results flagged for a closer look

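For 11 genes named by the rule, the 3 stromal pairs went one way between 5 and 50 mM glucose and the 3 epithelial pairs went the other, on the TMM-scaled level. For XAF1, PKP1, ALPL, LGALS9 and MT-ND3, the rule itself required the same direction in 3 of 3 stromal pairs, so that part was fixed beforehand. The share of all genes tested with this pattern is not given here, so the 11 are not read as an excess. The difference of the log2 fold changes, stromal minus epithelial, was tested as an interaction over all genes with edgeR's quasi-likelihood test and Benjamini-Hochberg adjustment, and it passed for 0 of the 11. XAF1 had a difference of 4.88 (adjusted p = 0.0749), from 4.15 in stromal and -0.71 in epithelial cells, and was at 46.7, 37.2 and 37.3 CPM in epithelial libraries at 5 mM and at 26.9, 18.9 and 28.6 CPM at 50 mM. ISG15 had a difference of 4.81 (adjusted p = 0.548) and LGALS9 one of 4.46 (adjusted p = 0.621), both from the quasi-likelihood test. PKP1, ALPL and VWF, the von Willebrand factor, had differences of 4.01, 2.49 and 1.59, with adjusted p-values of 0.302, 0.534 and 0.631 in that edgeR test. These 6 genes are of the epithelial class, and the epithelial share was higher at 50 mM in 3 of 3 stromal pairs. With the mixture offset, the stromal log2 fold changes of XAF1, ISG15, LGALS9, PKP1, ALPL and VWF were 2.28, 2.94, 1.66, 0.68, -0.57 and 0.15. These values depend on the floor for genes hardly counted at 5 mM. At 50 mM, LGALS9 and PKP1 lay below the mixture level of their own pair in 3 of 3 libraries. XAF1 was above its own in replicate 1 only, ISG15 in replicates 1 and 3, and ALPL and VWF in replicates 1 and 2.

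The mitochondrial genes MT-ND3, COX1 and COX3 had differences of -1.88, -1.73 and -1.89, with adjusted p-values of 0.739, 0.783 and 0.781 in the edgeR test. One epithelial library stands behind their epithelial values: replicate 2 at 5 mM had 6.97 CPM of MT-ND3, 246 CPM of COX1 and 55.9 CPM of COX3, where the other 5 epithelial libraries had at least 53.2, 6655 and 1025 CPM. TXNRD1, a thioredoxin reductase, and IGFBP4, a binding protein of insulin-like growth factors, had differences of -0.43 and -1.50, with adjusted p-values of 0.753 and 0.631 in the edgeR test. Their stromal log2 fold changes were -0.30 and -0.53, and without replicate 3 that of IGFBP4 was -0.0180. Groups of 3 libraries are too small for a test of single libraries that lie far from the others.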

How the results depend on the processing

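The count of genes called was 0 in the paired fit, 178 with DESeq2 and 50 without replicate 1 (range over single replicates 0 to 50), and 0 in all other fits. Of the 178, 175 were of the epithelial class and 31 also had an unadjusted p under 0.05 in the fit with the offset; of the 50, 4 did. With the offset, 1 gene was called without replicate 1, from 0 to 1 over single replicates, and the interaction test called 307 without replicate 1, from 0 to 307. At an unadjusted p under 0.05, the 496 higher genes became 843 with DESeq2, 826 with every gene of at least 1 count, 1094 with all 12 libraries, 74 and 71 with the share as a covariate with and without the block, and 265 to 802 without single replicates. The 168 lower genes became 35 without the replicate block, 79 with all 12 libraries, 43 and 86 with the share as a covariate with and without the block, and 71 to 264 without single replicates. With the offset, the 288 higher and 215 lower genes became 45 and 15 without the block, and 184 to 488 and 156 to 269 without single replicates. For the interaction with cell type, 261 genes had the stromal effect below at an unadjusted p under 0.05, and 122 without the block. The causes were not tested.

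With the offset, the log2 fold change changed sign for ALPL (-0.57), UPP1 (-0.0172), CHRNB1 (-0.24), ESR1 (-0.10), KRT19 (-0.0352), TNC (0.0361), PDIA3 (0.0116), PKM (0.0764), SCD (-0.0488), TXNRD1 (0.14) and CSF1 (0.27), and without the block for ESR1 (-0.0206). Without single replicates, signs changed within AKR1B1 (-0.0131 to 0.31), ESR1 (-0.18 to 0.28), PGR (-0.51 to 0.33), KLF10 (-0.0283 to 0.23), PDIA3 (-0.10 to 0.0332), PKM (-0.10 to 0.12), CXCL5 (-1.63 to 0.12) and CSF1 (-0.44 to 0.25). The median of the neither class with the offset was -0.00111 without replicate 1. Depth limits genes below about 0.2 CPM, and 3 pairs cannot give an exact permutation p under 0.25.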

Other observations

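A further 4 genes far from the mixture level of their own pair are given here, chosen after their values were seen. The collagenase gene MMP1 had 117 CPM at 5 mM and 24.5 CPM at 50 mM in replicate 1 (0.239 times the mixture level), and the stromelysin gene MMP3 had 1635 and 517 CPM (0.355 times). In replicate 2, complement C3 had 29.0 and 85.6 CPM, at 2.98 times the mixture level, while in replicate 1 it had 21.4 and 7.95 CPM, at 0.428 times. IGFBP5, a binding protein of insulin-like growth factors, had 17.8 and 86.5 CPM in replicate 1, at 4.17 times the mixture level, in the library that also held the interferon-stimulated genes above theirs.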
